A study of Mus musculus with 2 samples.

Results

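Open chromatin was described at 10 genes that neuronal activity is known to induce, among them Arc and Npas4, in adult mouse hippocampus. The genes were listed by name, with no threshold on measured values, though earlier results of these data were known: Arc, Npas4, Homer1, Nptx2, Gadd45b, Dusp1, Ier2, Btg2, Plk2 and Ptgs2. All 10 were found in the GENCODE M21 annotation, of 21938 protein-coding genes in all. For each gene, peaks and footprints were taken within 500 bp on either side of every annotated transcript start, and single distal peaks within 50 kb on either side of the gene record. The assay was DNase-seq, in which DNase I digests accessible DNA in nuclei. Regions with many cuts are called as peaks, and short protected stretches as footprints. The tissue came from female mice of the F1 cross B6CASTF1/J aged 8 to 10 months, and the labels call it layer of hippocampus. There was 1 group of 2 libraries, each made from a pool of 2 biosamples. No animal is labelled as stimulated, treated, mutant or control, so the response of the genes to activity was not measured here. Whether the pools hold different animals is not stated in the labels, which give both libraries the same donor entry. The spread between the libraries (SD, n = 2) may therefore be partly or wholly technical.

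When a neuron fires, calcium entering through receptors and channels activates kinases that act on factors already present in the nucleus, such as CREB, SRF with its partners, and MEF2. These factors bind the cyclic AMP response element (CRE), the CArG box and the MEF2 site, and immediate early genes are transcribed within minutes, without new protein synthesis. Some of these genes encode transcription regulators, and others encode effectors that change signalling or the synapse itself. In hippocampus they are widely used to mark recently active neurons.

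The promoters of Dusp1, Ier2, Btg2 and Plk2 are shown first because each held the full CRE, TGACGTCA, with all its bases inside a footprint of both libraries. The sequences are 100 bases each from the RefSeq mm10 assembly (GRCm38.p6), read 5′ to 3′ on the gene's own strand, and capitals mark the CRE. They are reference sequence, and the alleles of the cross were not examined. Dusp1 lies at chr17:26508576-26508675 on the minus strand, Ier2 at chr8:84662858-84662957 on the minus strand, Btg2 at chr1:134079282-134079381 on the minus strand and Plk2 at chr13:110394922-110395021 on the plus strand.
Dusp1 promoter: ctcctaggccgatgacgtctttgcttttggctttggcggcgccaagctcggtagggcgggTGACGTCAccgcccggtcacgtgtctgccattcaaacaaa
Ier2 promoter: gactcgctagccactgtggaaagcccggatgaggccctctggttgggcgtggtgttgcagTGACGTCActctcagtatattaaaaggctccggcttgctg
Btg2 promoter: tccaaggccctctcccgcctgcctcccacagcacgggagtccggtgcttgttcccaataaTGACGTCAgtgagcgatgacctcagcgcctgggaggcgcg
Plk2 promoter: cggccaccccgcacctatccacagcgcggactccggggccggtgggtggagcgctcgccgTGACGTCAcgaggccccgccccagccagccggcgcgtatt
The centre of the CRE lay at -92 bp from the transcript start in Dusp1, -41 bp in Ier2, -197 bp in Btg2 and -61 bp in Plk2, where negative means upstream. The other bases around the 8 shared letters differ between the 4 promoters.

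Replicate 1 held 98902 peaks and 244447 footprints, and replicate 2 held 130199 peaks and 251726 footprints. Peak height, as deposited, moved in fixed steps like a scaled count, with a median of 99 steps per peak in replicate 1 and of 73 in replicate 2. The Gadd45b promoter peak stood at 1086 and 792 steps and that of Ptgs2 at 116 and 95. The signal is an average over all cells of the tissue, so more cells with an open site and more cuts per cell cannot be told apart. A peak of each library was found at the promoters of 6 of 6 neuron markers, 5 of 5 hippocampal field markers and 3 of 4 astrocyte markers. The same held at 1 of 4 microglia and 1 of 4 endothelium markers. Neither library had a promoter peak at Aqp4 (astrocyte), C1qa and Tmem119 (microglia), or Cldn5, Cdh5 and Pecam1 (endothelium). Open promoters of neuronal and of glial markers were thus both present, and the part of each cell type in the values of the 10 genes was not tested.

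Each library had a peak at the promoter of all 10 genes, and 59.2% of all protein-coding genes had one in both. With the smaller and stricter deposited peak list the count was again 10, against 53.3%. A gene's promoter signal below is that of the highest peak touching its windows. The median over the 12982 protein-coding genes open in both libraries was 2.30, and the middle 50% lay between 1.22 and 4.06. The median of the 10 genes was 3.40, and 7 of the 10 were above the median of all open genes. The order by mean signal was Gadd45b, Homer1, Dusp1, Btg2, Arc, Ier2, Plk2, Npas4, Nptx2 and Ptgs2. Replicate 2 read higher than replicate 1 in 8 of the 10 genes. The log2 ratio of replicate 2 to replicate 1 ran from -0.06 in Gadd45b to 0.41 in Npas4, with a median of 0.14 over all open genes.

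**Figure D1:**
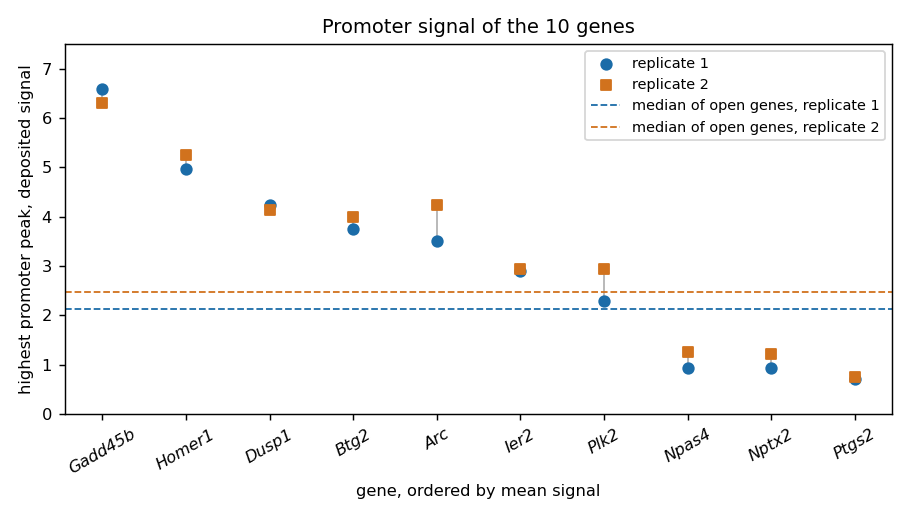
Highest promoter peak of each of the 10 genes in each library (y axis, deposited signal, linear from 0), ordered by mean. Circles are replicate 1, squares replicate 2, and dashed lines the medians of all open protein-coding genes, 2.12 and 2.48. Npas4, Nptx2 and Ptgs2 lie below both lines, and the other genes lie above both except Plk2, which is above each library's own median.

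Among the regulators of transcription, Npas4 had the weakest promoter. Npas4 (ENSMUSG00000045903, chr19:4984355-4990316, minus strand) encodes a basic helix-loop-helix PAS factor made mainly in neurons after calcium entry. Its promoter peak read 0.939 in replicate 1 and 1.25 in replicate 2, a mean of 1.09 ± 0.22, which is percentile 21.7 of open promoters. The replicate 1 peak was 880 bp wide and the replicate 2 peak 340 bp, so the peak was broad and low in the former. A weaker shared site, with 0.582 and 0.660, lay at -545 bp.

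Btg2 and Ier2 had stronger promoters than Npas4 in both libraries. Btg2 (ENSMUSG00000020423, chr1:134075170-134079120, minus strand) encodes an antiproliferative protein that binds the CCR4-NOT deadenylase complex. Its promoter peak read 3.76 and 3.99, a mean of 3.87 ± 0.17, at percentile 73.0. Ier2 (ENSMUSG00000053560, chr8:84661331-84662852, minus strand) encodes a nuclear immediate early protein. Its peak read 2.91 and 2.94, a mean of 2.93 ± 0.02, at percentile 60.5. The libraries differed less at Ier2 than at any other of the 10 genes.

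The signalling genes Gadd45b, Dusp1 and Plk2 were all above the median of open genes, from percentile 55.7 to 91.2. Gadd45b (ENSMUSG00000015312, chr10:80930073-80932204, plus strand) encodes a stress-inducible protein linked to DNA demethylation and to MAP kinase signalling. It had the strongest promoter of the 10 genes, with 6.58 in replicate 1 and 6.30 in replicate 2. The mean was 6.44 ± 0.20, at percentile 91.2. Dusp1 (ENSMUSG00000024190, main start at chr17:26508519, minus strand) encodes a phosphatase that switches off MAP kinases. Its peak read 4.24 and 4.13, a mean of 4.18 ± 0.08, at percentile 76.1. The Dusp1 record is 56539 bp long in the annotation because some of its transcripts start far upstream. A separate peak near those far starts, with 1.71 and 2.07, also touches the promoter of the neighbouring gene Ergic1 and cannot be assigned to either gene. Plk2 (ENSMUSG00000021701, chr13:110395046-110400844, plus strand) encodes a kinase that takes part in weakening synapses after sustained activity. Its peak read 2.30 and 2.95, a mean of 2.62 ± 0.46, at percentile 55.7. In replicate 2 a further peak of 1.07 lay at -365 bp, and replicate 1 had none there.

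The Gadd45b promoter is shown because it was the strongest of the 10 and the only main promoter among them with a TATA box, TATAAA, which is centred at -26 bp. It was chosen for printing after its values were seen. The 100 bases directly upstream of the start are chr10:80929973-80930072 on the plus strand, and capitals mark the TATA box.
Gadd45b promoter: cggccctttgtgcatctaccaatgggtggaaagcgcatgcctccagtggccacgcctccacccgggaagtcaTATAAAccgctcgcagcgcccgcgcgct
In replicate 2 a footprint of 31 bp ended on the TATA box. In replicate 1 a footprint of 21 bp overlapped that one but ended before the box, and another of 10 bp touched only the last base of the box. A TATAAA match on either strand was present in 31.0% of all promoter windows of 1001 bp and in 19.95% of the open ones.

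The genes that act at the synapse or between cells held both strong and weak promoters. Homer1 (ENSMUSG00000007617, chr13:93299635-93405129, plus strand) encodes a scaffold that ties metabotropic glutamate receptors to the postsynaptic density, and its short activity-induced form loosens that tie. The main promoter peak read 4.97 and 5.25, a mean of 5.11 ± 0.19, at percentile 84.2. The Homer1 record has 10 starts in 3 windows, and the strong peak lies at the start at chr13:93303757. At the 5′ end of the record the shared peak read 0.364 and 0.565, and the third window held no peak. Arc (ENSMUSG00000022602, chr15:74669083-74672570, minus strand) encodes a dendritic protein that promotes removal of AMPA receptors from the synapse. Its peak read 3.51 and 4.24, a mean of 3.87 ± 0.52, at percentile 73.0, and its SD was the largest of the 10 genes.

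Nptx2 and Ptgs2 had weak promoters in both libraries. Nptx2 (ENSMUSG00000059991, chr5:144545902-144557478, plus strand) encodes a secreted pentraxin that clusters AMPA receptors. Its peak read 0.927 and 1.22, a mean of 1.07 ± 0.20, at percentile 21.01. Ptgs2 (ENSMUSG00000032487, chr1:150100031-150108227, plus strand) encodes cyclooxygenase-2, which makes prostaglandin precursors. Its peak read 0.703 and 0.755, a mean of 0.729 ± 0.037, at percentile 10.8. Neighbours in the order that did not differ beyond the spread were Btg2 and Arc, Ier2 and Plk2, and Npas4 and Nptx2. The order of Dusp1 and Arc, which are not neighbours, also reversed between the libraries. Arc read 3.51 against 4.24 in Dusp1 in replicate 1, and 4.24 against 4.13 in replicate 2. Ptgs2 was the lowest in each library taken alone, and Gadd45b was the highest in each.

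Weak signal did not go with few CpG dinucleotides in every case. The observed to expected CpG ratio of the 1001 bp window was 1.03 in Nptx2, higher than in 98.9% of all promoter windows, although its promoter signal was low. The ratio was 0.451 in Npas4 and 0.454 in Ptgs2, at percentiles 40.7 and 40.9. These were the only members below the median of all windows, 0.583. In Arc it was 0.677, and in the other 6 genes it ranged from 0.761 in Btg2 to 0.919 in Homer1.

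Footprints were found in the promoter windows of all 10 genes in both libraries. All 10 had at least 1 footprint that overlapped one of the other library, against 53.7% of all protein-coding genes, a share that includes closed promoters. Replicate 1 had 80 footprints in the windows of the 10 genes, of which 44 (55%) overlapped one of replicate 2. Replicate 2 had 68, of which 43 (63.2%) overlapped one of replicate 1. These shares were near those of all open promoters, 54.5% and 63.8%. The median number per gene, averaged over the libraries, was 6.75, against 6.0 in all open genes. Arc had 7 footprints in replicate 1 and 6 in replicate 2, and 5 of each were shared. One shared pair in Arc covered 39 bp in replicate 1 and 35 bp in replicate 2, just upstream of the start. Another shared pair in Arc, centred at -93 bp and -97 bp, held an SP and KLF motif (GGGCGG) with all its bases in both. Npas4 had 9 and 8 footprints, of which 3 of each were shared, and those 3 lay downstream of the start, between 198 bp and 474 bp. Nptx2 had 3 and 2 footprints, and the shared ones lay upstream, near -118 bp and -91 bp. The short CRE core TGACG, centred at -118 bp in Nptx2, touched that first footprint.

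A CRE, a CRE variant (TGACGCAA) or a CArG box match touched a shared footprint in the promoter windows of 4 members, Dusp1, Ier2, Btg2 and Plk2, against 2.9% of all protein-coding genes. In each of them the match was the full CRE. Every base of the CRE lay in a footprint of both libraries in the same 4 genes, against 1.93% of all genes. Both background shares include closed promoters. Of the 12982 open genes, 519 had a full CRE touching a shared footprint. Matches are a description and do not show which protein was bound. The footprint over the Dusp1 CRE ran over chr17:26508597-26508624 in replicate 1 and chr17:26508597-26508622 in replicate 2, so the libraries placed its one end on the same base. The Ier2 footprint ran over chr8:84662881-84662905 and chr8:84662881-84662902, and it was the only footprint of Ier2 in replicate 2. The Plk2 footprint ran over chr13:110394976-110394998 and chr13:110394982-110394998. The Btg2 footprint ran over chr1:134079293-134079325 and chr1:134079305-134079327. In Btg2 the CRE lay inside the peak of replicate 1, which was 340 bp wide, but outside the peak of replicate 2, which was 200 bp wide, although the footprint was listed in both.

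**Figure D2:**
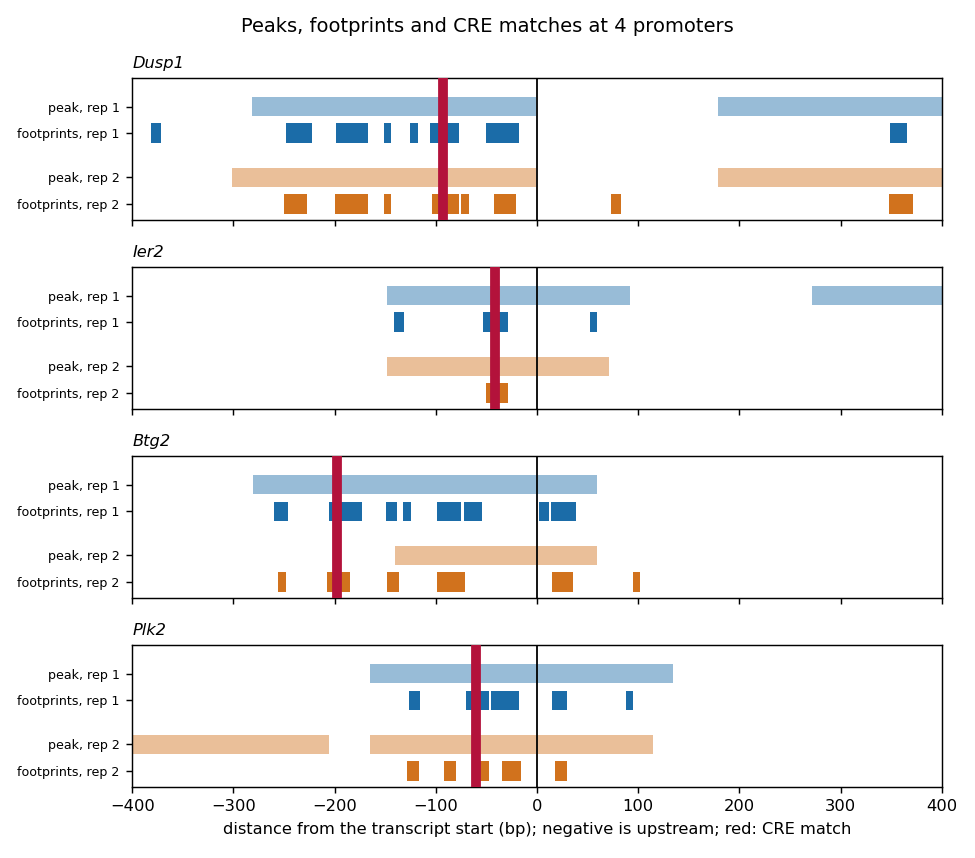
Peaks (pale bars) and footprints (dark bars) of replicate 1 (blue) and replicate 2 (orange) at Dusp1, Ier2, Btg2 and Plk2, by distance from the transcript start in bp, with the CRE match as a red band. The CRE is centred at -92, -41, -197 and -61 bp and falls on a footprint in both libraries in each gene, and in Btg2 it falls outside the replicate 2 peak.

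A full CRE occurred in the 1001 bp window at the main start of 4 of the 10 genes, against 3.52% of all and 4.95% of open promoter windows. Homer1 had a CRE too, at -3775 bp near the 5′ end of its record, and that copy lay in no peak and no footprint. Of the 887 open genes with a CRE in any promoter window, 519 (58.5%) had it touching a shared footprint. The share among the members was 4 of 5. The core TGACG, which lies inside each full CRE and so is not a separate feature there, was present in 9 of the 10 main windows, against 47.2% of all and 59.5% of open windows. Arc was the gene without one. Homer1 had cores centred at -38 bp and -12 bp that touched shared footprints. No main promoter window of the 10 genes held a CRE variant, a CArG box, an EGR motif (GCGTGGGCG) or a MEF2 site. The shares of all windows with these were 1.03%, 4.21%, 2.10% and 1.31%, and of open windows 1.39%, 3.37%, 3.13% and 0.986%. The AP-1 motif (TGANTCA) was present in 2 of 10, against 18.5% of all and 13.97% of open windows. The NF-kB motif was present in 4 of 10, against 27.0% of all and 31.3% of open windows. GGGCGG was present in 10 of 10, against 62.3% of all and 84.6% of open windows. All motifs were searched on both strands.

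A distal site is a peak, or overlapping peaks of the libraries, that touches no protein-coding promoter window. All 10 genes had at least 1 distal site with a peak in both libraries, against 84.5% of all protein-coding genes. There were 94 distal sites in all, of which 62 were shared, 12 were found in replicate 1 alone and 20 in replicate 2 alone. The shared part was 65.96% (Wilson 95% interval 55.9% to 74.7%, covering counting error only), against 50.6% of all distal sites of the genome. The interval treats the sites as independent, although they cluster around the genes, with 17 of the 94 at Btg2. The median signal of the 62 shared sites was 1.07, against 0.686 over all shared distal sites, and 50 of the 62 were above the latter. The strongest single-library site read 1.16. In 2 of the 20 sites of replicate 2 alone, replicate 1 listed bases below a false discovery rate of 0.05, and in 0 of the 12 sites of replicate 1 alone did replicate 2 do so.

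The number of shared distal sites differed widely among the 10 genes. Btg2 had 12, Dusp1 9, Arc 8, Gadd45b 8, Npas4 7, Ier2 7, Nptx2 5, Plk2 4, Homer1 1 and Ptgs2 1. The searched stretch of Dusp1 was 156539 bp because its record is long. Its 4 shared upstream sites lay in introns of Ergic1, from -67800 to -101482 bp of the main start. The median number of shared sites was 7, against 4 over the open protein-coding genes and 3 over all. The middle 50% of all genes had 1 to 6. Homer1 and Ptgs2 were below both medians, and Plk2 equalled that of the open genes. Per 100 kb of searched sequence the median of the 10 genes was 6.18 shared sites, against 2.56 over all protein-coding genes, which include those with closed promoters. Btg2 had 11.5 per 100 kb, more than 99.6% of all genes. However, the start of Btg2 was the nearest protein-coding start for only 6 of its 12 shared sites. The rest lay nearer to a start of Fmod or Chit1. Homer1 had 0.487 per 100 kb although its promoter was the second strongest of the 10. Its other 7 distal sites, 5 of them inside the gene, were found in replicate 2 alone, with signals of 0.262 to 0.668. Of the 62 shared sites, 42 lay between genes, 14 in introns and 6 in exons. A member's own start was the nearest protein-coding start for 43, so the rest lie closer to another gene. In Ier2 this held for only 3 of its 7 shared sites.

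**Figure D3:**
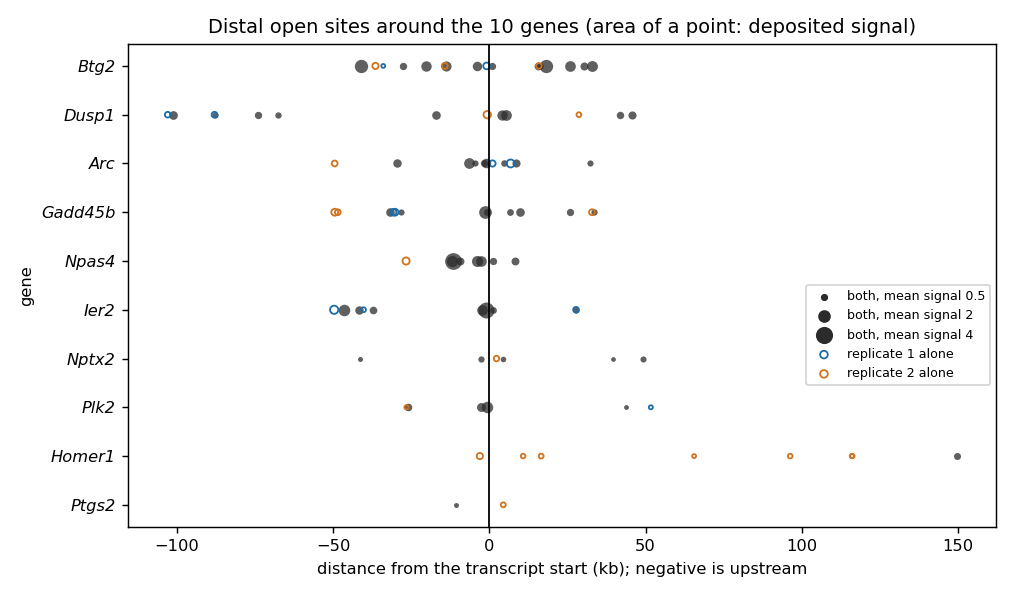
Distal open sites around each of the 10 genes (rows) by distance from the main transcript start in kb (x axis, linear). Filled points are the 62 shared sites and open points the 12 of replicate 1 alone (blue) and 20 of replicate 2 alone (orange), with the area of a point in proportion to its signal. Btg2 has 12 filled points on both sides, the largest point lies upstream of Npas4, and Homer1 and Ptgs2 have 1 filled point each.

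The strongest distal site of the 10 genes lay upstream of Npas4, whose promoter was among the weakest. The site at -11615 bp read 5.20 in replicate 1 and 4.38 in replicate 2, a mean of 4.79 ± 0.58. That mean was higher than in 99.7% of all shared distal sites and 4.38 times the mean of the Npas4 promoter. The next, at -11955 bp, read 2.05 and 2.35, and further sites at -3935 bp and -2785 bp read 2.04 and 2.12 and 2.05 and 1.80. Each of these 4 sites exceeded the Npas4 promoter in both libraries. The one at -2785 bp also touches a start of a gene that is not protein-coding. A start of Npas4 was the nearest protein-coding start for all 7 shared sites of the gene. The strongest distal site exceeded the promoter in both libraries in 2 of the 10 genes, Npas4 and Ier2, against 28.3% of open protein-coding genes.

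The site at -11615 bp of Npas4 is shown because it was the strongest distal site of the 10 genes. It covers chr19:5001801-5002060 and is printed on the minus strand, the strand of Npas4, with its CArG box in capitals. It was chosen for printing after its values were seen.
Npas4 distal site: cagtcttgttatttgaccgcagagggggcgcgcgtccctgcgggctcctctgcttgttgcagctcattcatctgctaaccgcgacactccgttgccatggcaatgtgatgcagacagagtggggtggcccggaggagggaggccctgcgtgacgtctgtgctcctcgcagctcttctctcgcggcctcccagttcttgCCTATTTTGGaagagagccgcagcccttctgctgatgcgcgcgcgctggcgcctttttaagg
The CArG box, the motif of SRF, is centred at -11541 bp and lay in no footprint of either library. A TGACG core of the same site, centred at -11593 bp, lay in a footprint of replicate 1 alone. The site held 7 footprints in replicate 1 and 3 in replicate 2, of which 4 and 3 overlapped one of the other library.

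Arc had 5 shared distal sites upstream and 3 downstream. The strongest, at -6701 bp, read 1.98 in replicate 1 and 1.96 in replicate 2, a mean of 1.97 ± 0.02, higher than 95.3% of all shared distal sites. The second, at -961 bp, read 1.61 and 1.503, a mean of 1.55 ± 0.07. The site at -1641 bp read 1.03 and 0.732. Each of these 3 sites held 1 CArG box, centred at -6720, -928 and -1576 bp. As background, Arc is known to have an upstream enhancer, the synaptic activity response element, with sites for CREB, MEF2 and SRF. No annotation used here gives its position, and whether one of these sites is that enhancer was not tested.

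The first pair of these Arc sites is shown with the CArG box in capitals, on the minus strand, the strand of Arc. The site at -6701 bp covers chr15:74679161-74679380 and the site at -961 bp covers chr15:74673381-74673680. The second was chosen for printing after its values were seen.
Arc distal site at -6701 bp: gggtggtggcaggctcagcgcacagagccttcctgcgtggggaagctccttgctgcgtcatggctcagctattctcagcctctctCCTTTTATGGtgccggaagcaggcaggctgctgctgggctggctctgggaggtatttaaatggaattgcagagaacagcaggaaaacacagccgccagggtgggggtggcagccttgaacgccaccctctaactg
Arc distal site at -961 bp: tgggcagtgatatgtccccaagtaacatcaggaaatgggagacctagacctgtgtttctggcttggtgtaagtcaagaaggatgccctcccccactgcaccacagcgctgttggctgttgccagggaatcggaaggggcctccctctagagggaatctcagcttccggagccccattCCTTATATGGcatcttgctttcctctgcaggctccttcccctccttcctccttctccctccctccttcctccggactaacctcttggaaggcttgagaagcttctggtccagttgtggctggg
The CArG box of the farther site touched a footprint of replicate 1 alone, and a TGACG core centred at -6753 bp in the same site touched a footprint of replicate 2 alone. The CArG box of the nearer site lay in no footprint. The farther site held 4 footprints in replicate 1 and 3 in replicate 2, of which 1 of each was shared.

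The other genes each had their strongest shared distal sites at different distances. Ier2 had one at -1229 bp with 4.10 and 4.62, a mean of 4.36 ± 0.37, which is 1.49 times its promoter. The second of Ier2, at -46499 bp in an intron of Nfix, read 2.04 and 2.51. Btg2 had one at 18089 bp downstream of its start with 2.86 and 3.17, and one at -41231 bp in an intron of Chit1 with 2.48 and 3.55. The means of this Btg2 pair, 3.02 ± 0.22 and 3.02 ± 0.75, did not differ beyond the spread. Gadd45b had one at -1352 bp with 2.49 and 3.01, and one at -31982 bp in an exon of Tmprss9 with 1.25 and 1.30. Dusp1 had sites at 5368 bp and 4183 bp downstream of its start, with 1.93 and 1.99 and with 1.84 and 1.77. The site at 5368 bp also touches a start of a gene that is not protein-coding. Both Dusp1 sites lie beyond the end of the gene.

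Plk2, Nptx2, Homer1 and Ptgs2 had fewer or weaker distal sites. Plk2 had one at -675 bp with 1.88 and 2.58, and one at -2635 bp with 0.848 and 1.92, where the libraries differed by more than the value of replicate 1. Nptx2 had sites at -2711 bp, with 0.727 and 0.604, and at 49039 bp, with 0.654 and 0.620. Those values are near the median of all shared distal sites. The only shared site of Homer1, at 149714 bp, read 0.782 and 0.906 and lay in an exon of Jmy. The only one of Ptgs2, at -10720 bp, read 0.285 and 0.549, higher than 17.3% of all shared distal sites.

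The motifs searched at promoters were also searched at the distal sites, beside all shared distal sites of the genome. A CArG box was found in the 300 bp around the centre of 5 of the 62 shared sites, against 1.59% of all shared distal sites. The 5 were the 3 of Arc, the one of Npas4 and one of Btg2 centred at -14022 bp. Several of these sites lie close together around 1 gene, so the 62 sites are not independent of each other. The NF-kB motif was found in 12 of 62, against 5.68%, and the TGACG core in 17 of 62, against 13.4%. The 300 bp reached beyond the narrower sites, so some matches lay in no peak. Among them were NF-kB matches centred at -1217 bp of Gadd45b, 41823 bp of Dusp1, 27455 bp of Ier2 and 15371 bp of Btg2. The sites of these matches are included in the NF-kB count of 12. The CRE variant was found in 1, against 0.243%, in an exon of Ier2, where it touched a footprint of replicate 1 alone. A MEF2 site was found in 1, against 1.01%, at Gadd45b. GGGCGG was found in 12, against 10.3%, TATAAA in 10, against 12.6%, and the AP-1 motif in 9, against 15.4%. The full CRE was found in 0, against 0.522%, and the EGR motif in 0, against 0.202%.

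**Figure D4:**
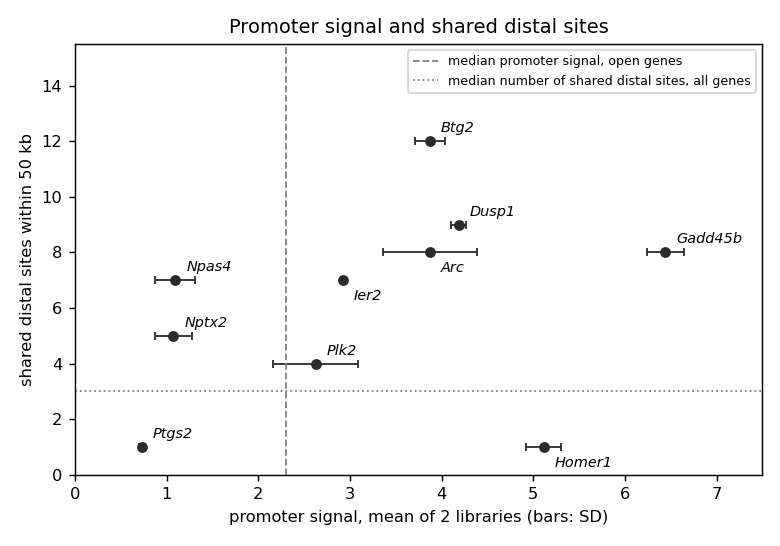
Number of shared distal sites within 50 kb of the gene record (y axis) against the mean promoter signal of the 2 libraries (x axis, linear from 0, bars show the SD) for the 10 genes. The dashed line is the median promoter signal of open genes, 2.30, and the dotted line the median number of shared sites of all genes, 3. Npas4 combines a signal of 1.09 with 7 sites, and Homer1 a signal of 5.11 with 1 site.

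Promoter signal and the number of distal sites were not ordered alike among the 10 genes. Npas4 and Ier2 had 7 shared sites each, with promoter signals of 1.09 and 2.93. Homer1 and Ptgs2 had 1 each, with promoter signals of 5.11 and 0.729. Gadd45b and Arc had 8 each, with 6.44 and 3.87.

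Genes of the same families and other activity-induced genes give the context. Of 24 family members, 19 had a promoter peak in both libraries, Ier3 had one in replicate 2 alone, and Npas1, Nptxr, Btg4 and Ptgs1 had none. The family members with the highest signal were Btg1, with 8.11 and 8.29, and Dusp6, with 6.17 and 5.44. Btg1 thus exceeded Btg2 in both libraries, and Dusp6 exceeded Dusp1 in both. Within the Npas family, Npas2 read 0.648 and 0.676 and Npas3 read 0.824 and 0.708, all below Npas4. Homer2, with 0.624 and 0.557, and Homer3, with 1.76 and 1.79, were below Homer1. Gadd45a, with 3.78 and 2.97, and Gadd45g, with 3.44 and 3.86, were below Gadd45b. Plk3, with 5.24 and 5.05, and Plk4, with 3.28 and 3.82, were above Plk2, while Plk1 and Plk5 were below it in both libraries. Ier5 read 4.36 and 4.96, above Ier2 in both libraries. Ier5l, with 2.85 and 3.42, was below Ier2 in replicate 1 and above it in replicate 2. Nptx1 read 0.715 and 1.201, below Nptx2 in both libraries, but in replicate 2 nearly equal to it (1.217). The constitutive cyclooxygenase gene Ptgs1 had no promoter peak, while Ptgs2 had a weak one in both libraries.

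At all 36 other activity-induced genes both libraries had a promoter peak, beside the same background of 59.2%. Their median signal was 2.59, between that of all open genes (2.30) and that of the 10 genes (3.40). The highest were Per1, with 16.4 and 10.8, and Jun, with 12.4 and 10.2.

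**Figure D5:**
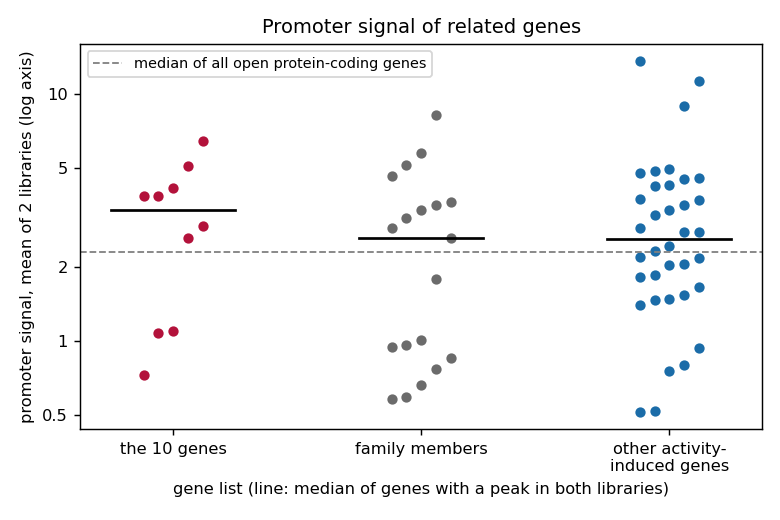
Mean promoter signal of the 2 libraries (y axis, log axis) for the 10 genes, the 19 family members and the 36 other activity-induced genes with a peak in both libraries, 1 point per gene. Lines mark the list medians of 3.40, 2.61 and 2.59, the dashed line is the median of all open protein-coding genes, 2.30, and each list spans weak and strong promoters.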

How the data were processed

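Per the labels, 2 libraries of 1 group were used, each with its own peak lists, footprints and base intervals on mm10, and per the deposited notes these were not made from pooled libraries. Which aligner, peak caller and footprint tool made them was not given in the sources used here. The deposited peak height is a signal; its values were whole multiples of a step of 0.006059 in replicate 1 and 0.00795 in replicate 2 in 100% of peaks, within 0.05 of a step, and no source used here says what a step is. The deposited footprints carry a p-value type threshold of 0.01 in every row and were not ranked, and the deposited false discovery rates, also a p-value type unit, list bases below 0.05. The larger peak list was used, and the smaller one, with 55102 and 78377 peaks, as an alternative.

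Peaks of the libraries were merged where they overlapped by at least 1 bp, and a site is shared when both libraries have a peak in it. The main start of a gene is the protein-coding transcript start nearest to the midpoint of its strongest shared promoter site. Percentiles of promoter signal are among protein-coding genes with a promoter peak in both libraries, and those of distal signal among all shared distal sites. Percentiles of the CpG ratio are among all promoter windows, and the density of shared sites was ranked among all protein-coding genes. A total of 10 consensus motifs were searched on both strands in 1001 bp around the main start and in 300 bp around the centre of distal sites. CRE and CArG box matches were also sought in every promoter window. With 1 group there was no comparison between conditions and no test, and values are descriptions. Intervals are Wilson 95% intervals. The scripts were tested on simulated data and used Python 3.11.15, numpy 2.4.6 and pysam 0.24.0.

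The members, the gene lists and the motifs were chosen with earlier results of these data known. The rule for named items took all 10 members, the 2 shared distal sites of highest mean signal of each, the 2 family or activity-induced genes of highest mean promoter signal and those without a peak in both libraries. Sequences were to be printed for sites with a CRE or CArG box in a footprint. Not all sites under that rule are printed: the CRE variant in an exon of Ier2 and a CArG box at the far start of Dusp1 are not shown. Other family members, the Npas4 sites at -3935 and -2785 bp and the Arc site at -1641 bp were named after their values were seen. Alternatives covered the peak list, window, starts, flank, overlap, scaling of the signal, and each library alone. Some values of a marker list are not reported here.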

Additional observations from a re-analysis of the deposited data

How the results depend on the processing

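The number of shared distal sites, 62, was the count that moved most: it was 36 with the smaller peak list and 35 with a flank of 20 kb. Under the other alternatives it lay between 44 (reciprocal overlap of 0.5) and 71 (5′ end of the record alone), and with 1 library it was 74 to 82. With the promoter window of 2000 bp it was 48, since sites close to a start then no longer count as distal. The count of genes with a promoter peak was 10 under every alternative except 2, where it was 9: with the 5′ end of the record alone, Dusp1 had a peak in replicate 2 but none in replicate 1, and with a reciprocal overlap of 0.5 the Npas4 peaks, present in both libraries, no longer counted as shared. With the 5′ end alone the Homer1 promoter signal was 0.464 in place of 5.11. Shared promoter footprints of replicate 1 numbered 44, and 36 or 60 under the alternatives. The count of 4 genes with a CRE in a shared footprint was 4 when every base had to lie in the footprint. Dividing by the library median moved Ier2 from 2.93 to 2.95, beyond its small SD, and no other gene by more than its SD. With 2 libraries the SD is itself poorly known. The promoter peaks of Ptgs2, Nptx2 (153 and 153 steps) and Npas4 (155 and 157 steps) stood at fewer steps than those of the 7 strongest genes. The ratio of 4.38 between the strongest distal site of Npas4 and its promoter rests on that low promoter peak.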
